A study of Mus musculus with 6 samples.

Results

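Scavenger receptors are cell surface proteins that bind altered self molecules and microbes. This group held 10 mouse genes of 23462 named genes on the array: Marco, Msr1, Colec12, Scara3, Scara5, Cd163, Mrc1, Stab1, Cd36 and Scarb1. Marco was chosen by its knockout against control difference on these arrays, a large fall, so its values are described here without a test. The other 9 were taken as scavenger receptors by name, with earlier results of these data known. The 10 genes were covered by 14 probes, of which 11 probes for 8 genes could be tested. The samples were colon of 3 control mice and 3 mice with an Islr knockout, all male, each on 1 single-colour Agilent array. Neither the allele by which Islr was lost nor strain and age is given in the sources used here, and the labels describe the other group only as control, with WT in the sample titles. By the sample source, both groups drank 3.5% dextran sulfate sodium (DSS), which injures the colonic epithelium, for 5 days and then recovered for 1 day, whereas a separate treatment field states that there was none. The series' design text says that the colon samples were flow separated, without naming a cell population, and the arrays held markers of epithelium, muscle, stroma and immune cells alike. Such RNA mixes cell types, so fewer cells of a type and less RNA per cell cannot be told apart.

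The receptors fall into classes by structure. Class A receptors such as Marco and Msr1 carry a collagen-like stalk and take up bacteria and modified lipoproteins. Class B receptors such as Cd36 and Scarb1 span the membrane at both ends and handle fatty acids and high-density lipoprotein. In the gut, resident and recruited macrophages use these receptors to clear dead cells, microbes and haemoglobin, while endothelium, fibroblasts and fat cells also carry several of them.

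Sequence just before the RefSeq start site was available for 5 of the 10 genes, and all 5 windows are shown. With outlier spots kept, Marco, Mrc1, Stab1 and Cd36 had every knockout below every control, as did 17.6% of 40172 probes, whereas Cd163 did not. Mrc1 and Stab1 could not be tested with outlier spots left out. Both probes of Msr1, that of Scara3 and a probe each of Scara5 and Scarb1 also had no overlap, but no window was available for these genes. The 200-base windows lie, in build GRCm38.p6, at Marco chr1:120505025-120505224 on the minus strand, Mrc1 chr2:14229214-14229413 on the plus strand, Stab1 chr14:31168642-31168841 on the minus strand, Cd36 chr5:17835897-17836096 on the minus strand, Cd163 chr6:124304451-124304650 on the plus strand. They read 5′ to 3′ on the gene's strand, with capitals marking matches on either strand to GAGGAA, a core bound by the myeloid factor PU.1.
Marco: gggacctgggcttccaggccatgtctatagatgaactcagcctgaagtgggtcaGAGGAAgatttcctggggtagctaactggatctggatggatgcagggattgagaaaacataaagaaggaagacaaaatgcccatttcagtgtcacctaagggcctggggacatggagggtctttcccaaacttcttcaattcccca
Mrc1: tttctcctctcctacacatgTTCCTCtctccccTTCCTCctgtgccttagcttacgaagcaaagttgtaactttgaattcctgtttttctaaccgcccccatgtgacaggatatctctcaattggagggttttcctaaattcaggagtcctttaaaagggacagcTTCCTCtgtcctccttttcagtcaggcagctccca
Stab1: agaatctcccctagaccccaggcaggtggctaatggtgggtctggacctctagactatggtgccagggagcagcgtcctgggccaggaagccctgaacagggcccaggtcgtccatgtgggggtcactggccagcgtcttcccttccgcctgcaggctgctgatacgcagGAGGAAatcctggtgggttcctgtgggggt
Cd36: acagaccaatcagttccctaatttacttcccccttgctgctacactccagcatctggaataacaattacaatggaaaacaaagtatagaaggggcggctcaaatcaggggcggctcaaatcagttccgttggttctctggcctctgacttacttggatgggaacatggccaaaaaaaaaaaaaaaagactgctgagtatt
Cd163: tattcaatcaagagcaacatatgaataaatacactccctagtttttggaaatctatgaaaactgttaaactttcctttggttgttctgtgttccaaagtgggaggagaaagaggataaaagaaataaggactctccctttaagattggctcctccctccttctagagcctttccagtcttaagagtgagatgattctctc
The PU.1 core was present in 3 of these 5 windows, those of Marco, Mrc1 and Stab1, and in 19.0% of 32851 RefSeq promoter windows of the same length. Neither TGANTCA, the AP-1 element, nor TTGCNNAA, a C/EBP element, occurred on either strand in the 5 windows, against 5.48% and 7.47% of all windows. These matches describe letters only.

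On each array the 75th percentile of the signal lay between 4910.5 and 7110 intensity units, with the 3 lowest percentiles on the knockout arrays. Values below are log2 signals relative to that percentile. Controls occupied 1 row of the slide and knockouts the other, so slide row and genotype cannot be told apart. Islr, the targeted gene, had signals of 18838, 16768 and 15157 among controls, against 1862, 3057 and 2327 among knockouts. The difference was -2.44 (SE 0.21, limma adjusted p 0.0171) without the outlier spot of control replicate 1. With that spot kept it was -2.55 (limma adjusted p 0.00741). In the fit with outlier spots left out, the adjusted p rose to 0.0580 without knockout replicate 3.

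Arrays also differed in their signals of adipocyte markers. The adipocyte marker Adipoq, which encodes adiponectin, had a signal of 29057 in control replicate 1 against 413 and 199 in the other controls, and 166, 3760 and 4211 in the knockouts. Cidec, a lipid droplet gene, gave 18390 in control replicate 1 against 317 and 441 in the other controls. These markers were picked with their values in view. Of the 7 adipocyte markers 5 were highest among the controls on that array, while Lep (576 against 917 and 987) and Cidea (2974 against 3117 and 3121) were not. Control replicate 1 was also the highest control at 11 of the 13 probes of the members other than Marco, and knockout replicate 1 was the lowest knockout at 12 of the 13. Both arrays also had the most outlier spots, 13.6% and 16.0%, against 3.26% to 9.05% on the others. The part of fat tissue or of outlier spots in the results was not tested, so values without control replicate 1 stand beside the genes that this array moves.

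Marco, the macrophage receptor with collagenous structure that binds bacteria, was the gene with the largest difference in the group. Its probe (A_51_P371750) read 31457 intensity units in control replicate 1, 10668 in control replicate 2 and 4015 in control replicate 3, against 318, 745 and 520 in the knockouts. The lowest control was thus well above the highest knockout, and the controls themselves spanned 3.01 on the log2 scale. The mean log2 value was 0.73 ± 1.5 (SD, n = 3) for the control group against -3.46 ± 0.49 (SD, n = 3) for the knockout group, a difference of -4.19, or 18.3-fold lower. The difference was -3.40 without control replicate 1 and -4.91 without control replicate 3, so its size depended on which control was included.

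Msr1, the class A receptor for modified low-density lipoprotein, had 2 probes. The brighter probe (A_52_P607128) gave 3641, 2419 and 998 in controls and 320, 737 and 694 in knockouts, with the spot of control replicate 1 marked as an outlier. The difference was -1.19 (SE 0.46, limma adjusted p 0.169) without that spot and -1.64 with it. The second probe (A_52_P127130) gave 1904, 1148 and 600 against 104, 420 and 295, a difference of -1.94 (SE 0.57, limma adjusted p 0.0944), and its signal cleared the background on 2 of the 3 knockout arrays. Both probes had knockouts below controls without overlap, and neither passed the 5% false discovery rate. The gap between the probes changed by -0.31 (exact permutation test, two-sided, p = 0.3), in a design whose smallest p is 0.1, so the test could not pass at 5% and does not show that the probes agree.

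Scara5, a class A receptor known for ferritin uptake, was the only one of the 7 tested relatives of Marco that passed in the fit over all probes. The probe for transcript NM_028903 gave 7629, 4002 and 2771 intensity units in controls against 163, 623 and 317 for the knockouts. The groups were far apart, with a mean of -0.60 ± 0.78 against -4.11 ± 0.85 (SD, n = 3 each). The difference was -3.51 (SE 0.53), or 11.4-fold lower, with a limma adjusted p of 0.0320. Across all 35351 tested probes 2.42% were called lower. The call was lost without control replicate 2 (adjusted p 0.0821), control replicate 3 (0.0667), knockout replicate 1 (0.0690) or knockout replicate 3 (0.0830), and the difference stayed between -3.95 and -3.07 in all 6 such fits.

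The second Scara5 probe, for transcript NM_001168318, did not share this fall. It gave 649, 900 and 1065 in controls and 518, 890 and 710 in knockouts, so the groups overlapped. The difference was -0.03 (95% interval -0.59 to 0.53, limma adjusted p 0.949). On the same arrays the first probe lay 3.55, 2.15 and 1.38 above the second in controls and -1.66, -0.51 and -1.16 in knockouts. The gap changed by -3.48 on the log2 scale, with an exact permutation p of 0.1 (two-sided), the smallest that 3 against 3 arrays can give. The mean of both probes differed by -1.77 and was not called (limma adjusted p 0.0533).

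Scara3, a class A relative known for its response to oxidative stress, gave 4270, 4598 and 3772 in controls against 1293, 2496 and 2143 for the knockouts. The groups did not overlap, yet the difference of -0.86 (SE 0.21) did not pass (limma adjusted p 0.0704). It passed with quantile normalization (adjusted p 0.0499) and with array weights (0.0170). Colec12, a collectin-type class A receptor of vessels and stroma, was bright on every array, with 42578, 40051 and 41456 in controls and 37220, 39191 and 37825 in knockouts. After scaling it differed by 0.10 (95% interval -0.34 to 0.53, limma adjusted p 0.756) without the outlier spot of knockout replicate 1, and by 0.16 with it. No difference in Colec12 was detectable, and the interval leaves room for a change of up to 0.53 on the log2 scale.

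**Figure D1:**
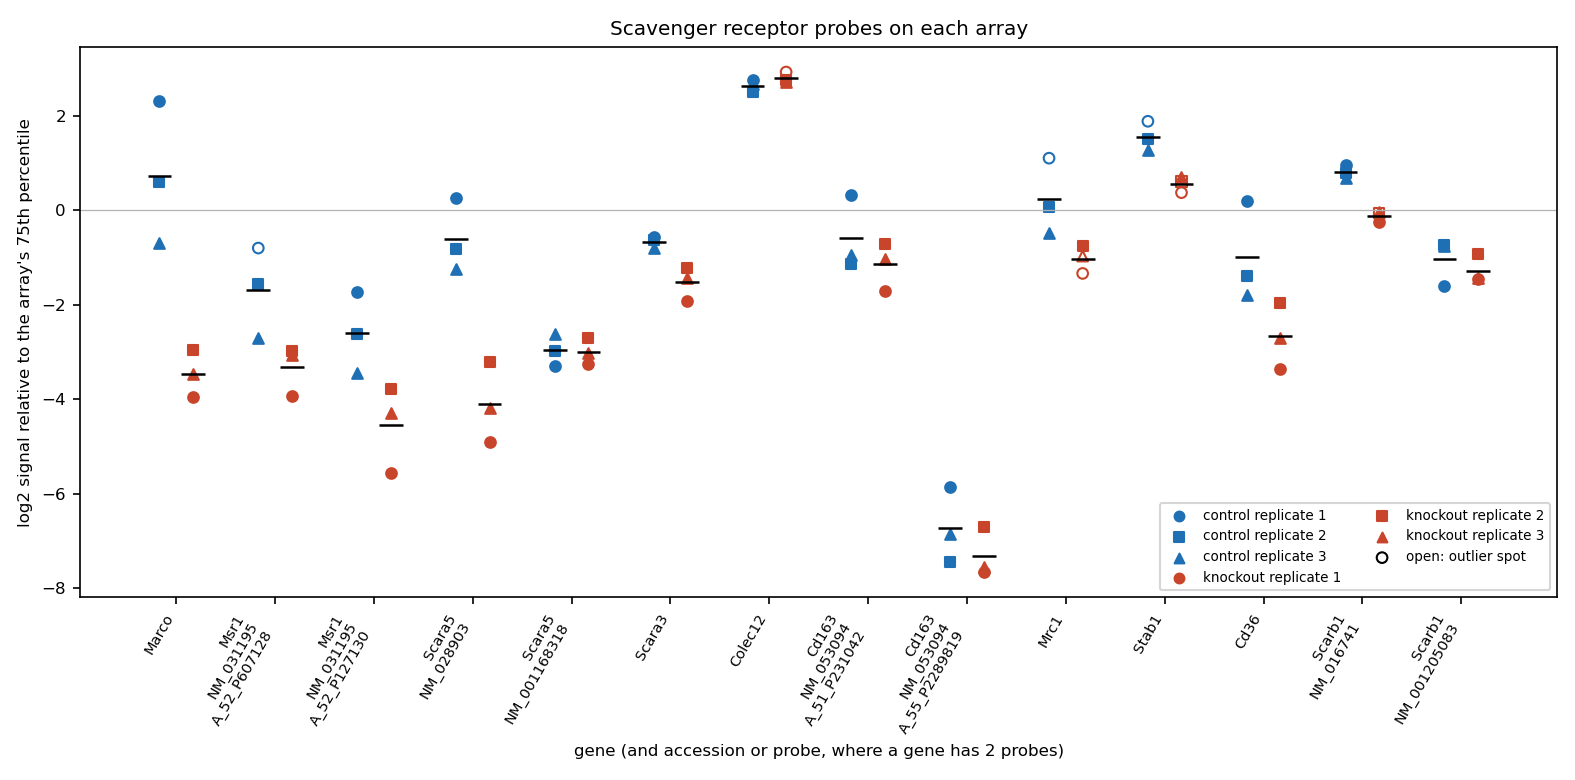
Log2 signal of the 14 probes, relative to the 75th percentile of each array (vertical axis), for each probe (horizontal axis), with controls in blue, knockouts in red, 1 symbol per replicate, open symbols for outlier spots and bars for group means. Marco and the Scara5 probe for NM_028903 have the widest separation of the groups, while Colec12 and the other Scara5 probe have overlapping groups.

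Cd163, the macrophage receptor for haptoglobin-haemoglobin complexes, gave 7971, 3245 and 3383 in controls and 1501, 3560 and 2825 in knockouts at its brighter probe. Knockout replicate 2 lay above 2 of the controls, and the difference was -0.56 (SE 0.44, limma adjusted p 0.451). Leaving out control replicate 1 gave -0.11 and leaving out knockout replicate 1 gave -0.28, and with array weights the sign turned (0.0076). The other Cd163 probe was not well above background on any array, with 24 to 109 intensity units, and has no test.

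Mrc1, the mannose receptor of tissue macrophages, was not tested because its spots on control replicate 1 and knockout replicates 1 and 3 were outliers. With those spots kept it gave 13608, 7436 and 4667 in controls against 1940, 3429 and 2942 for the knockouts. The groups did not overlap, and the difference was -1.25 (SE 0.40, limma adjusted p 0.108 with outlier spots kept). It was -0.81 without control replicate 1 (adjusted p 0.109). Stab1, stabilin-1, a clearance receptor of macrophages and endothelium, was untested for the same reason. With outlier spots kept it gave 23379, 20292 and 15854 in controls and 6344, 8841 and 9354 in knockouts, a difference of -1.0 (SE 0.20) that was called at an adjusted p of 0.0469. The call was lost in each of the 6 fits with an array left out (adjusted p 0.0530 to 0.131), with differences of -1.14 to -0.84.

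Cd36, the class B receptor for fatty acids, oxidised lipoprotein and thrombospondin, gave 7271, 2700 and 1878 in controls against 479, 1500 and 886 for the knockouts. The groups did not overlap by a small margin once scaled, and the difference of -1.67 (SE 0.58) did not pass (limma adjusted p 0.129). Cd36 is also a fat cell gene, and its highest value was in control replicate 1, where Adipoq was 29057. Adipoq was 413 and 199 in control replicates 2 and 3 against 3760 and 4211 in knockout replicates 2 and 3, where Cd36 was lower than in those controls. Knockout replicate 1 had the lowest value of both genes (Adipoq 166). A link between these genes was not tested. Without control replicate 1 the Cd36 difference was -1.07 (limma adjusted p 0.159).

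Scarb1, the receptor for high-density lipoprotein, had 2 probes for 2 transcripts. The probe for NM_016741 gave 12351, 12242 and 10541 in controls and 4110, 5569 and 5620 in knockouts, with little spread within either group. The difference was -0.96 (SE 0.19), or 1.94-fold lower, and lay just outside the threshold (limma adjusted p 0.0531). With outlier spots kept it was -0.93 and passed (adjusted p 0.0335), as it did with normexp background (0.0391), quantile normalization (0.0408) and array weights (0.0145). The probe for NM_001205083 gave 2087, 4238 and 3836 against 1775, 3048 and 2130, and the groups overlapped (-0.24, 95% interval -0.93 to 0.45, limma adjusted p 0.632). The gap between the probes changed by -0.69 (exact permutation test, two-sided, p = 0.1, the smallest possible).

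Of the 13 probes of members other than Marco, 12 had a lower mean in the knockout with outlier spots kept, as did 48.8% of 40172 probes. At 8 of the 13 every knockout lay below every control, as did 17.6% of 40172 probes. The 40172 probes had passed the background filter, whereas the dim Cd163 probe, counted among the 13, had not. In the fit with outlier spots left out, 1 of the 9 genes other than Marco was called and 7 of the 9 could be tested. By their brightest probes 2.47% of 16451 named genes were called lower. With outlier spots kept, 3 of the 13 probes (Scara5, Stab1 and Scarb1) were called lower against 2.89% of probes. These members were chosen with results of these data known, so the counts describe the group and are no independent support. The plot of differences by probe orders the probes by receptor class.

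**Figure D2:**
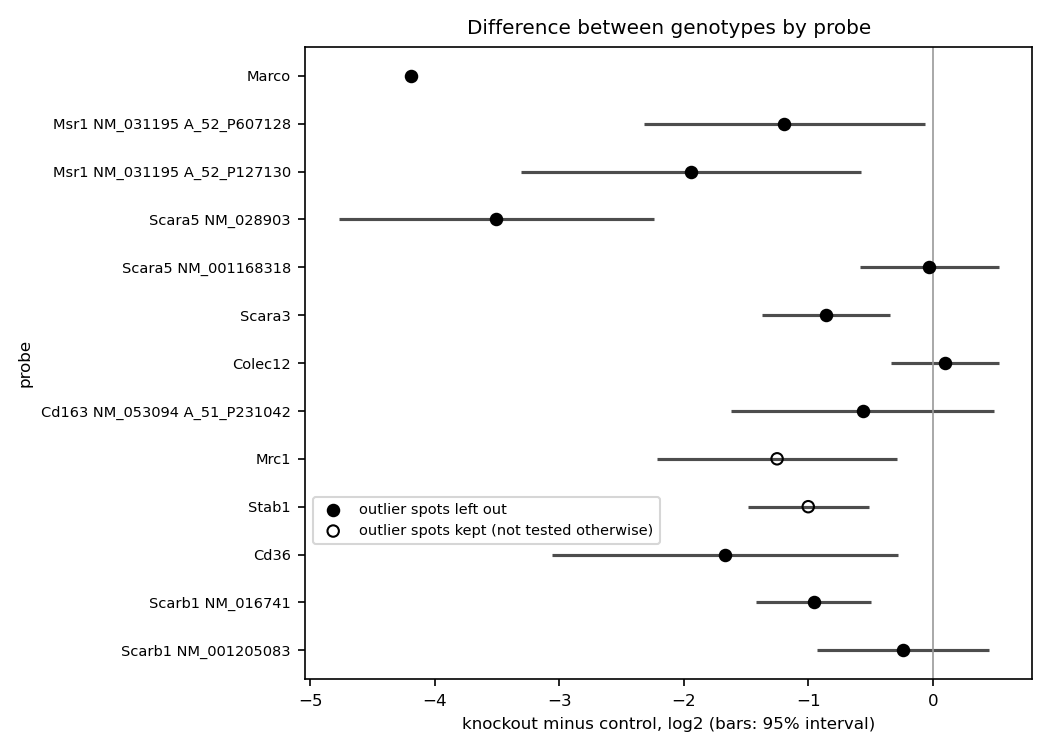
Difference between knockout and control on the log2 scale (horizontal axis) for each tested probe and for the 2 probes measured only with outlier spots kept (open circles), with 95% intervals (bars) from limma except for Marco, which was chosen for this difference. The Scara5 probe for NM_028903 lies at -3.51 and Colec12 at 0.10.

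**Figure D3:**
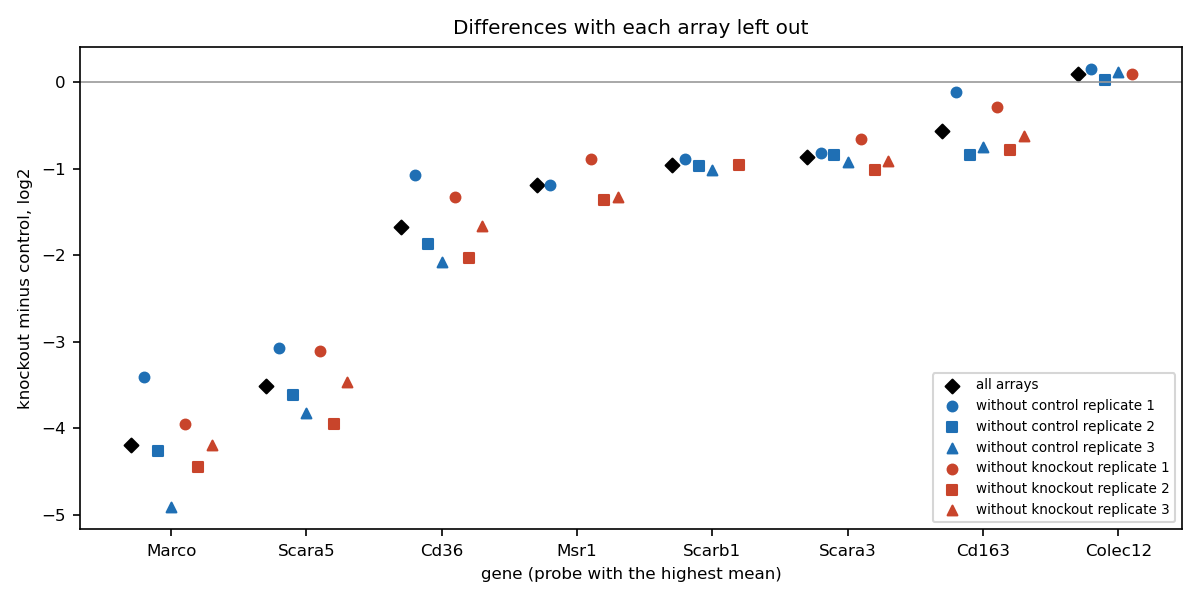
Difference between knockout and control on the log2 scale (vertical axis) for the 8 tested genes (horizontal axis), with all arrays (black diamonds) and with each array left out (blue for a control, red for a knockout). The difference of Marco runs from -4.91 to -3.40 and that of Cd163 from -0.84 to -0.11; a missing symbol is a fit in which the probe had too few usable values.

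The genes whose signals followed Marco most closely over the 6 arrays were found from the root mean square difference between log2 profiles, each centred on its own mean, over 30240 probes with a usable value on all arrays. The 5 closest genes were Ppbp, Serpina3j, Scara5 (distance 0.59), Slc13a3 (0.60) and Mmp8, against a median distance of 2.32 over all these probes. Ppbp, the platelet basic protein, gave 1614, 1245 and 539 intensity units in controls and 44, 62 and 57 in knockouts. Serpina3j, of a serpin cluster with close paralogues that its probe may also capture, gave 2048, 1459 and 728 against 25, 67 and 79. Neither cleared the background on any knockout array, so their distances and their place in the order are not fixed by these data. Slc13a3, a carrier of dicarboxylates, gave 6085, 2676 and 1798 against 202, 359 and 245. Mmp8, the neutrophil collagenase, gave 4663, 4085 and 2399 against 111, 240 and 317, with 2 of 3 knockout arrays above background. Among 13353 genes with a probe above background on every array, an alternative chosen after seeing the data, the closest were Scara5, Slc13a3, Serpina3m, Chil3 and Spp1. The first 5 all had the highest control signal in replicate 1 and the lowest in replicate 3, as Marco did. They were picked by closeness to its profile, so this is no separate observation. Among the other members the Msr1 probe A_52_P127130 ranked 81 and Cd36 ranked 125 of 14530 genes. Without control replicate 1 only 1 of the 5 closest genes was the same, and Scara5 ranked 9.

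**Figure D4:**
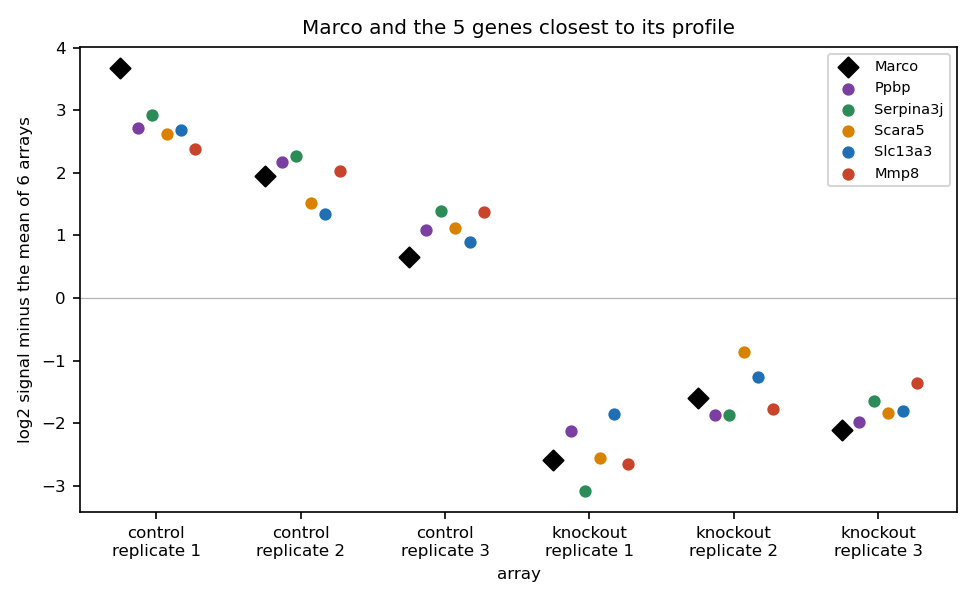
Log2 signal minus its mean over the 6 arrays (vertical axis) on each array (horizontal axis), for Marco (black diamonds) and the 5 genes closest to its profile (coloured points, set side by side), where the knockout values of Ppbp and Serpina3j are not above background. The genes were picked by closeness to Marco, and every gene is above its mean on the 3 control arrays and below it on the 3 knockout arrays.

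Other scavenger receptors, from a list of 17, were measured for 16 genes, of which 10 had lower and 6 higher values in the knockout, with a median of -0.38. Over all named genes 48.8% were lower, with a median of 0.01, and 2.47% were called lower. Leaving out control replicate 1 brought the list's median to -0.22, whereas leaving out knockout replicate 2 brought it to -0.73. The only call was Lrp1, an endocytic receptor for lipoproteins and haem carriers, which fell by 1.28 on the log2 scale (SE 0.16, limma adjusted p 0.0245), from 31600, 29266 and 25344 to 8612, 10409 and 10138. The call was lost when control replicate 2 or 3 or knockout replicate 1 or 3 was left out. Olr1, the lectin-like receptor for oxidised lipoprotein, differed by -3.30 (SE 0.92, adjusted p 0.0858), but cleared the background on only 1 of the 3 knockout arrays. Of 8 mannose receptor relatives and collectins, 7 were tested, with a median of 0.37, which fell to 0.12 when control replicate 1 was left out or to 0.18 when knockout replicate 3 was. Of these 0 were called in limma and 3 had an unadjusted p under 0.05, as did 28.2% of named genes. Pla2r1 and Mrc2, which belong to the mannose receptor family, had the largest differences, -1.37 (adjusted p 0.0929) and -1.36 (adjusted p 0.0900).

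Genes that act on what these receptors take up were read from 4 further lists. Of 14 genes for haemoglobin, haem and iron 12 were tested, 10 of them lower, with a median of -0.40. Among all named genes 48.8% were lower. Of the 12, 2 were called lower, as were 2.47% of all named genes. Dropping control replicate 2 or 3 gave medians of -0.22 and -0.20, dropping knockout replicate 2 or 3 gave -0.84 and -0.73, keeping outlier spots gave -0.17 and using no filter gave -0.63. Hmox1, the enzyme that breaks down haem, gave 18742, 11691 and 7278 in controls and 2490, 3129 and 2312 in knockouts. Its difference was -1.50 (SE 0.25, limma adjusted p 0.0441) without the outlier spot of control replicate 1. With that spot kept it was -1.88 (limma adjusted p 0.0411). Lrp1 is also in this list. The Hmox1 call was lost when any of the 3 knockouts was left out, and 2 fits gave no value because of an outlier spot. The ferritin chains Fth1 and Ftl1, whose protein is a ligand of Scara5, differed by 0.13 (adjusted p 0.652) and -0.03 (adjusted p 0.933). Haptoglobin (Hp), whose complex with haemoglobin binds Cd163, differed by -1.77 (SE 0.84, adjusted p 0.231). Of 11 tested apoptotic cell uptake genes Pros1, a bridging protein for dying cells, was the only call (-0.74, SE 0.14, adjusted p 0.0468), and that call was lost in each of the 6 fits with an array left out. The list had a median of -0.31, and of -0.56 without knockout replicate 2. Neither the 13 tested lipoprotein and cholesterol genes (median -0.09) nor the 10 tested fatty acid uptake genes (median 0.0033) held a call in limma, and 3 genes of each list had an unadjusted p under 0.05, a share near the 28.2% of named genes. The lipoprotein median was above 0 with array weights (0.09) and without control replicate 1 (0.05), control replicate 3 (0.02) or knockout replicate 1 (0.06). The fatty acid median lay between -0.05 and 0.05 with an array left out. Apoa1 (-0.94, adjusted p 0.50) was above background on 1 of 3 knockout arrays and bright in control replicate 1 alone, with 846 against 140 and 133 in the other controls. Other members with large values in these lists were Pdzk1, an adaptor of Scarb1 (0.92, adjusted p 0.0981), Thbs1, a ligand of Cd36 (-2.36, adjusted p 0.102), and Slc27a2 (1.54, adjusted p 0.0573). The Thbs1 value leaves out the outlier spot of control replicate 1, whose 4846 lay near the 4062 and 4875 of knockout replicates 2 and 3. With that spot kept the Thbs1 difference was -1.81 and the groups overlapped.

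Regulators of macrophage genes were measured for 17 of 18, with a median of -0.40 and 0 calls in limma, and 6 had an unadjusted p under 0.05, near the share of all named genes. The median was -0.22 without knockout replicate 1 and -0.24 with array weights or the mean of a gene's probes. The largest differences were those of Csf2 (-2.75, SE 0.66, adjusted p 0.0657) and Il10 (-2.06, SE 0.48, adjusted p 0.0634), cytokines that act on macrophages, both above background on only 1 of the 3 knockout arrays. Spi1, the gene of PU.1, gave 231, 483 and 326 in controls and 68, 220 and 87 in knockouts, and was not called (-1.32, adjusted p 0.115); it too cleared the background on 1 knockout array.

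Markers of cell types, among them cells that carry these receptors, were read from further lists. Only the monocyte and neutrophil lists held calls. All 10 tested macrophage markers of 12 were lower, against 48.8% of named genes, with a median of -0.76. They held 0 calls in limma, and 7 had an unadjusted p under 0.05 against 28.2% of named genes. Their summed log2 level was 4.80 to 5.29 in controls and 4.20 to 4.77 in knockouts. The largest differences were those of the high-affinity IgG receptor Fcgr1 (-1.84, adjusted p 0.0567) and Adgre1, a surface marker of mouse macrophages (-0.96, adjusted p 0.109). The Adgre1 value leaves out the outlier spot of control replicate 1. With that spot kept the Adgre1 difference was -1.57 and the groups did not overlap. Of 7 monocyte markers 2 were called lower, as were 2.47% of named genes. These were Chil3 (-3.40, SE 0.44, limma adjusted p 0.0260) and F13a1 (-1.93, SE 0.34, adjusted p 0.0402). The Chil3 call was lost without control replicate 2 or 3 or knockout replicate 1 or 3, and that of F13a1 in 5 of 6 fits, all but the one without control replicate 1. The monocyte median of -0.73 moved to -1.94 and -2.22 when control replicate 2 or 3 was dropped, and to -1.48 and -1.39 when knockout replicate 2 or 3 was. The summed monocyte level overlapped, at 4.64 to 4.91 in controls and 4.67 to 4.88 in knockouts. Such a sum follows the brightest genes, here Ly6c2, Plac8 and Fn1, which differed by 0.49, 0.33 and -0.03 and were not called. Of 11 neutrophil markers 7 were called lower, Retnlg, S100a8, S100a9, Mmp8, Mmp9, Cxcr2 and Camp, and 2 were called higher, Ltf (3.66) and Cd177 (1.95). All 9 kept their direction, and each lost its call in 1 to 5 of the fits with an array left out that gave a value. Mmp8 lost it without control replicate 2, and Retnlg and S100a8 without knockout replicate 3. The fits without control replicate 2 or 3 gave no value for Retnlg and S100a8, nor did those without knockout replicate 2 or 3 for Ltf. The list's median of -2.40 moved to -1.51 and -1.59 when control replicate 2 or 3 was dropped. By their brightest probes 2.47% of named genes were called lower and 1.35% higher. The neutrophil level was 4.30 to 4.37 in controls and 3.41 to 3.54 in knockouts. It was summed over the 8 genes above background on all arrays, which leaves out Mmp8 and Mmp9. Its brightest gene on every array was Csf3r, which differed by 0.17 and was not called. Adipocyte markers were highest in control replicate 1, with 4.29 against 2.86 to 2.97 in the other controls and 2.32 to 3.27 in the knockouts.

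The other marker lists held 0 calls in limma. An unadjusted p under 0.05, found for 28.2% of named genes, was found for 5 of 6 blood endothelium, 4 of 5 lymphatic and 5 of 8 colonocyte genes. It was also found for 3 of 7 fibroblast and 2 of 6 smooth muscle genes, 1 dendritic cell and 1 skeletal muscle gene, and 0 genes of the B cell, T cell and adipocyte lists. Fibroblast markers had a median of -0.41 (7 of 7 lower, level 5.11 to 5.32 in controls and 4.50 to 4.93 in knockouts), with the largest differences at Lum (-0.83) and Col1a1 (-0.73). Dropping knockout replicate 1, 2 or 3 gave medians of -0.26, -0.76 and -0.69, and dropping control replicate 2 gave -0.62. Blood endothelium had a median of -1.26 (6 of 6 lower, level 3.33 to 3.51 against 1.25 to 2.80), led by Pecam1 (-1.70) and Emcn (-1.53), and of -0.72 without knockout replicate 1. Lymphatic endothelium had a median of -0.91 (5 of 5 lower, level 3.85 to 3.98 against 3.30 to 3.57), led by Flt4 (-1.41) and Pdpn (-1.40). Colonocyte markers were higher in 8 of 8 genes, with a median of 1.80 and a level of 3.23 to 5.23 against 5.59 to 6.11, led by Slc26a3 (3.69) and Slc37a2 (2.94). Smooth muscle markers were higher in 6 of 6, with a median of 0.36, led by Actg2 (0.52) and Smtn (0.47).

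The remaining lists had medians that single arrays moved. Dendritic cell markers had a median of -0.17, led by Batf3 (-0.93) and Cd209a (-0.65), which ran from -0.58 without knockout replicate 2 to -0.07 without knockout replicate 1. B and plasma cell markers had a median of -0.89, led by Ms4a1 (-1.28, and -0.59 with outlier spots kept) and Mzb1 (-0.98). Dropping control replicate 2 or 3 gave -0.36 and -0.52, and dropping knockout replicate 3 gave -0.43. T cell markers had a median of -0.24, led by Cd4 (-0.32) and Cd8a (0.29), which turned to 0.05 once knockout replicate 3 was dropped. It moved to -0.47 and -0.07 when control replicate 1 or 2 was dropped, and to -0.40 when knockout replicate 2 was. Skeletal muscle markers had a median of 0.18, led by Ckm (1.12) and Myh4 (0.99), which ran from 0.06 without knockout replicate 3 to 0.37 without control replicate 2. Adipocyte markers had a median of 0.15, led by Adipoq (0.33) and Cidec (0.28). Dropping control replicate 1 gave 0.70, dropping knockout replicate 1 gave 0.30 and array weights gave 0.92. The sign turned when control replicate 2 or 3 was dropped (-0.61 and -0.50) and when knockout replicate 2 or 3 was (-0.35 and -0.13). The part of these cell types in the differences of the receptors was not tested.

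**Figure D5:**
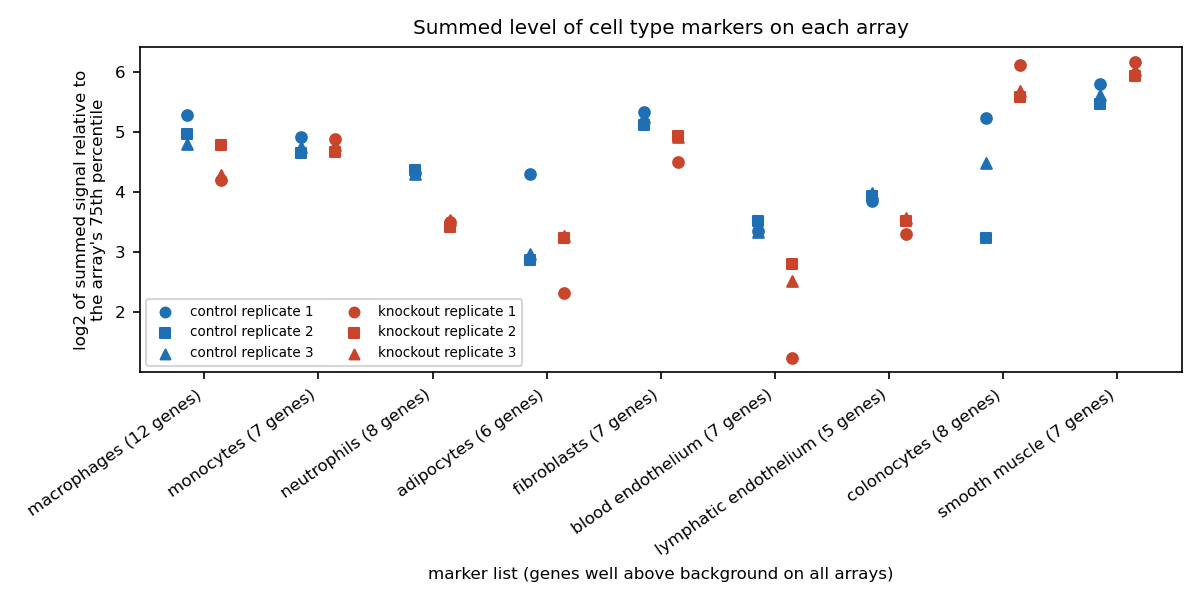
Log2 of the summed signal of each marker list relative to the 75th percentile of the array (vertical axis), for 9 cell types (horizontal axis), with controls in blue and knockouts in red and 1 symbol per replicate. Macrophage levels are 4.20 to 4.77 in knockouts and 4.80 to 5.29 in controls, and the adipocyte level stands out in control replicate 1.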

How the data were processed

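Colon RNA of 3 control and 3 Islr knockout mice was hybridised to 1 array each. Per the file headers, the arrays were read with Feature Extraction 11.5.1.1 (the submitters' processing notes name 10.7); the labels name Cy3, whereas the files hold the red channel, which was used. The deposited processed signal is a linear intensity, detrended and background-subtracted and not scaled between arrays, per the file headers. The deposited value table holds the same intensities (log2 correlation of at least 0.999999 over 56605 probes). Signals were converted to log2 here and centred on each array's 75th percentile over non-control spots. Outlier spots (non-uniform or population outliers, 3.26% to 16.0% of an array) were set missing. Among the brightest spots their share was 46.0% on control replicate 1 and 56.8% on knockout replicate 1. It was 10.7% to 25.6% on the other arrays. A probe was tested if well above background on all arrays of 1 group with at least 2 usable values per group (35351 of 56605 probes). limma 3.58.1 in R 4.3.3 was fitted over all probes, two-sided, with Benjamini-Hochberg adjustment at 5%. The number of arrays, 3 in a group, limits the precision. Nothing pairs the animals, and whether they were littermates is not given, so p-values measure the spread between these arrays. Probes were named through RefSeq accessions in GRCm38.p6 (59.7%), and a gene was represented in counts by its brightest tested probe. The files place probes on mm9, so no probe coordinates are printed. Upstream sequences are from RefSeq. The fit was tested on simulated data. The members and lists were chosen with earlier results of these data known. Named genes were Islr, the members, called members of each list, the 2 largest differences of a list without a call, and the 5 genes closest to Marco. Olr1, Fth1, Ftl1, Hp, Spi1, Serpina3m, Spp1, Ly6c2, Plac8, Fn1, Csf3r and, for control replicate 1, Adipoq, Cidec, Lep and Cidea were picked later, with their values in view. Alternatives tried were normexp background (offset 50), quantile normalization, median centring, outlier spots kept, no filter, array weights, the value table, the mean of a gene's probes and leaving out each array.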

Additional observations from a re-analysis of the deposited data

How the results depend on the processing

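Marco was lower in the knockout in every setting tried, by -4.20 to -3.75 in the 8 alternatives on all arrays. Of 104 values of the 9 other members under the alternatives and with arrays left out, 85 kept their direction and side of the threshold, 12 lost the call, 6 gained one, and 1 reversed, that of Cd163 with array weights (0.0076). The count of called members other than Marco, 1 in the fit reported, was 2 with normexp background, 3 with quantile normalization, 2 with outlier spots kept (Scara5 and Scarb1, or 3 with Stab1, which the reported fit could not test), 3 with array weights, 0 with no filter and 0 with the mean of a gene's probes, and 0 to 1 with an array left out. The count of called probes, 1403, was 2558 with normexp (51.1% higher in the knockout against 39.1%), 2185 with quantile normalization, 2249 with median centring, 484 with no filter and 9292 with array weights, and 40 to 2114 with an array left out. Leaving out control replicate 1 gave 2114 calls, 55.1% higher, of which 1008 were shared. Islr differed by -2.39 without knockout replicate 3 and by -2.58 to -2.34 in the 4 fits with an array left out that gave a value. Of the 5 genes closest to Marco, 3 remained with normexp background, 2 among probes above background on all arrays, and 1 to 4 with an array left out. The causes were not tested. Mrc1 and Stab1 with arrays left out, and the profiles above background, were added after the data were seen. No paired analysis was possible because the labels give no replicate numbers that pair the animals. Differences in dim probes (Olr1, Apoa1, Csf2, Il10, Spi1, Ppbp, Serpina3j, Mmp8, Mmp9, Flt4 and the second Msr1 probe) are limited by signal over background in the knockouts. That of Slc27a2 is limited in the same way in the controls, where 2 of 3 arrays cleared the background.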
